A study of Mus musculus with 2 samples.

Results

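The genes described here are the 41 listed members of Toll-like receptor and NF-kB signalling, found by symbol among the 54531 genes of the table. They comprise receptors, adaptors, kinases, NF-kB factors, their inhibitors and inflammatory targets. All 41 were found, and 32 reached a mean of at least 1 FPKM (fragments per kilobase of a gene and per 1000000 fragments sequenced) over both libraries. The other 9 stayed below it, 8 of them Toll-like receptors and the last one Ly96. RNA came from haematopoietic stem cells (HSCs) sorted from mouse bone marrow, with 1 library per genotype, called control HSCs and deletion HSCs. The control mice were Angptl2fl/fl, with floxed alleles of the gene for ANGPTL2, a secreted relative of the angiopoietins. The deletion mice were Cdh5-Cre;Angptl2fl/fl, in which the promoter of the endothelial cadherin gene Cdh5 drives Cre, and their label calls them deficient for Angptl2 in endothelial cells. The control library's description mentions Cdh5 and Cre and no floxed allele, so the labels do not settle whether its mice carried Cre. No age, sex, sort gate or number of mice is given in the sources used here. The comparison asks how RNA levels of HSCs differ between these genotypes.

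Toll-like receptors are membrane proteins of innate immunity that recognise microbial products, some at the cell surface and some in endosomes. They signal through the adaptors MyD88 and TRIF to IRAK kinases, TRAF6 and the TAK1 kinase complex, which switches on the IkB kinase (IKK). IKK marks IkB proteins for degradation, and NF-kB dimers then enter the nucleus and induce cytokines, chemokines and their own inhibitors. HSCs and early progenitors carry several of these receptors and can respond to microbial products, and macrophages, monocytes and neutrophils of the marrow express many of them strongly.

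FPKM values were scaled to 17380000 fragments for control HSCs and to 16840000 for deletion HSCs, as worked out from the step between values. With 1 library per genotype there is no replicate check and no p-value, and "higher" and "lower" describe these libraries only. Where a pair of values is given for a gene, control HSCs come first. Angptl2 was at 0.27 FPKM in control HSCs and 0.18 FPKM in deletion HSCs, too low to check the genotype labels. All 10 HSC and early progenitor markers were above 0 in both libraries, and 8 of the 10 were lower in deletion HSCs. Of the 23003 genes above 0 in either library 58% were lower there. Kit was at 54.3 FPKM in control HSCs and 48.8 FPKM in deletion HSCs. Cd34 was at 7.87 and 5.43 FPKM and Ly6a at 4.49 and 2.86 FPKM. The lowest of them, Slamf1, was at 0.40 and 0.55 FPKM. Markers of maturing neutrophils were abundant as well, with a summed level of 2590 FPKM in control HSCs and 1479 FPKM in deletion HSCs over 12 genes. In such bulk samples fewer cells of a type and less RNA per cell cannot be told apart.

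None of the 23 genes of the relay from adaptors to NF-kB and its inhibitors passed 2-fold, and the differences past 2-fold lay in a receptor and in a cytokine. Of these 23 genes 15 were lower and 8 higher in deletion HSCs. They ranged from Irak3, 1.48-fold lower on plain FPKM, to Ticam1, 1.21-fold higher. Of the 32 measured members, Tlr2 and Tnf (2 genes) were at least 2-fold lower in deletion HSCs, and none was as much higher. These counts use log2((FPKM + 1)/(FPKM + 1)), deletion over control, called the log2 ratio here, on which low genes differ less than on plain FPKM. With a pseudocount of 5 FPKM neither gene passed 2-fold. The share of members past 2-fold lower was 6.25%. Over all 12325 measured genes 3.38% were at least 2-fold lower and 2.47% at least 2-fold higher. Over the 10237 protein-coding genes among them, to which all members belong, the shares were 0.752% and 0.488%. Both genes were low, with means between 1 and 5 FPKM, where 1.43% of 3217 protein-coding genes were at least 2-fold lower and 0.839% as much higher. None of the 28 members at 5 FPKM or more passed 2-fold, where 0.442% of 7020 protein-coding genes were lower and 0.328% higher by that much. At 1.5-fold Cd14 joined as the third lower member, and again none was higher, against 6.08% and 5.74% of all measured genes. The other 29 members had a log2 ratio within 0.5 of 0. The median log2 ratio of the members was -0.063, against -0.011 for all measured genes, and 21 of 32 members (65.6%) were below 0 against 51.6% of all genes. That count moves with the scaling. It was 28 of 32 after rescaling both libraries to a common total, where 69.2% of all genes were below 0, and 15 of 32 without mitochondrially encoded genes in the scaling, where 41.4% were.

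**Figure D1:**
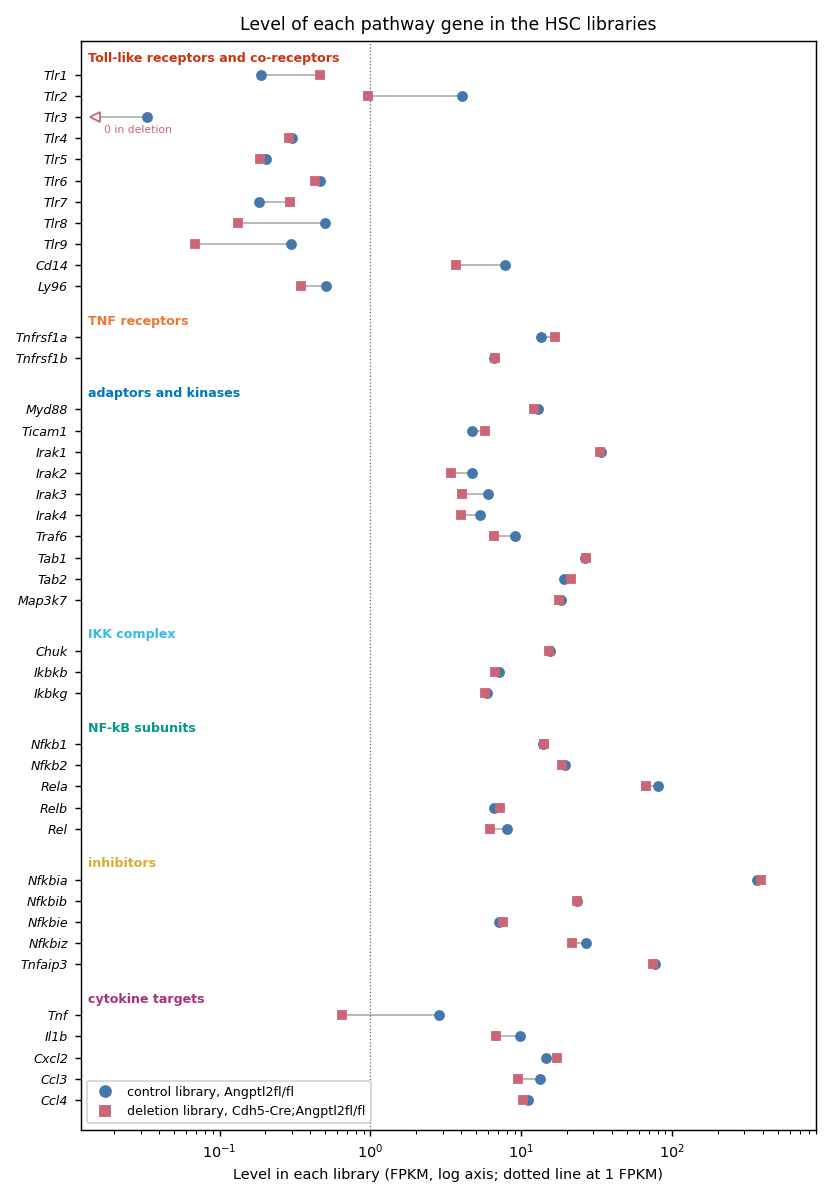
Level of each of the 41 genes in FPKM on a log axis, with circles for the control library, squares for the deletion library and 1 library per genotype; an open triangle marks Tlr3, at 0 in the deletion library. Nfkbia stands at 363 and 389 FPKM, while 8 of the 9 Toll-like receptors lie under 0.5 FPKM in both libraries and apart from Tlr3 the symbols are farthest apart for Tlr2, Tlr8, Tlr9 and Tnf.

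Among the receptors, Tlr2 stood apart (ENSMUSG00000027995, chromosome 3, 83836272 to 83841767, minus strand, GRCm38). It encodes the surface receptor for bacterial lipoproteins, which pairs with TLR1 or TLR6. Tlr2 was at 4.07 FPKM in control HSCs and 0.97 FPKM in deletion HSCs (213 and 49 fragments). On plain FPKM it was 4.21-fold lower in the deletion library, with a 95% counting interval of 3.08-fold to 5.87-fold (exact Clopper-Pearson, on the fragments of both libraries). Such intervals cover counting error only and not differences between mice or preparations, because each genotype has 1 library. Nor do they cover the scaling. Rescaling both libraries to a common total moved the median log2 ratio of all measured genes from -0.011 to -0.15, so intervals near equality could change sides. Duplicate reads are not separate molecules and would make the intervals too narrow. With the pseudocount the log2 ratio of Tlr2 was -1.37.

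Its partners did not follow. Tlr1 was at 0.19 FPKM in control HSCs and 0.46 FPKM in deletion HSCs (11 and 26 fragments). Tlr6 was at 0.46 and 0.43 FPKM, from 30 and 27 fragments. Their counting intervals on the plain log2 scale were 0.22 to 2.45 for Tlr1, which excludes equality, and -0.91 to 0.69 for Tlr6. Tlr1 and Tlr6 are similar in sequence, and fragments of either could have been counted for its copy.

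Cd14 (ENSMUSG00000051439, chromosome 18, 36725067 to 36726798, minus strand, GRCm38) encodes a co-receptor that hands lipopolysaccharide to TLR4 and also serves TLR2. It was at 7.76 FPKM in control HSCs and 3.70 FPKM in deletion HSCs, 2.10-fold lower on plain FPKM. The log2 ratio was -0.90, short of 2-fold, and -1.05, past it, with a pseudocount of 0.1. No fragment number could be worked out for Cd14, so it has no interval. The lipopolysaccharide receptor itself, Tlr4, was at 0.30 and 0.29 FPKM, from 29 and 27 fragments, with an interval of -0.87 to 0.75 on the plain log2 scale. Ly96, which encodes MD-2, the protein that binds lipopolysaccharide next to TLR4, was at 0.51 and 0.35 FPKM, from 9 and 6 fragments. The Ly96 interval, -2.31 to 1.11, was wider, and both intervals included equality.

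Tlr5, the flagellin receptor, was at 0.20 and 0.19 FPKM, from 17 and 15 fragments. Among the receptors of endosomes, Tlr8 and Tlr9 were lower in the deletion library and Tlr7 was not. Tlr8, a sensor of RNA, was at 0.50 FPKM in control HSCs and 0.13 FPKM in deletion HSCs (31 and 8 fragments), with an interval of -3.24 to -0.76. Tlr9, the sensor of unmethylated CpG DNA, was at 0.30 and 0.068 FPKM, from 18 and 4 fragments, with an interval of -4.15 to -0.52. Tlr7, the sensor of single-stranded RNA, was at 0.18 and 0.29 FPKM, from 13 and 20 fragments, with an interval of -0.41 to 1.80 that includes equality. Tlr3, the sensor of double-stranded RNA, had 3 fragments in control HSCs and 0 in deletion HSCs, where a count of 0 allows up to 0.034 FPKM. No fold is given for it.

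Summed over the 9 Toll-like receptors, control HSCs held 6.24 FPKM and deletion HSCs 2.82 FPKM (365 and 176 fragments). Tlr2 made up 65.2% of that summed level in control HSCs and 34.2% in deletion HSCs. Without Tlr2 the receptors summed to 2.17 and 1.86 FPKM, from 152 and 127 fragments, and the interval of -0.57 to 0.14 on the plain log2 scale included equality.

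The TNF receptors were expressed at higher levels than any Toll-like receptor. Tnfrsf1a, which encodes the death-domain receptor TNFR1, was at 13.4 FPKM in control HSCs and 16.6 FPKM in deletion HSCs (604 and 725 fragments). It had the highest log2 ratio of all measured members, 0.29, with a plain interval of 0.15 to 0.47. Tnfrsf1b, which encodes TNFR2, was at 6.54 and 6.67 FPKM, from 434 and 429 fragments, with an interval of -0.17 to 0.22.

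**Figure D2:**
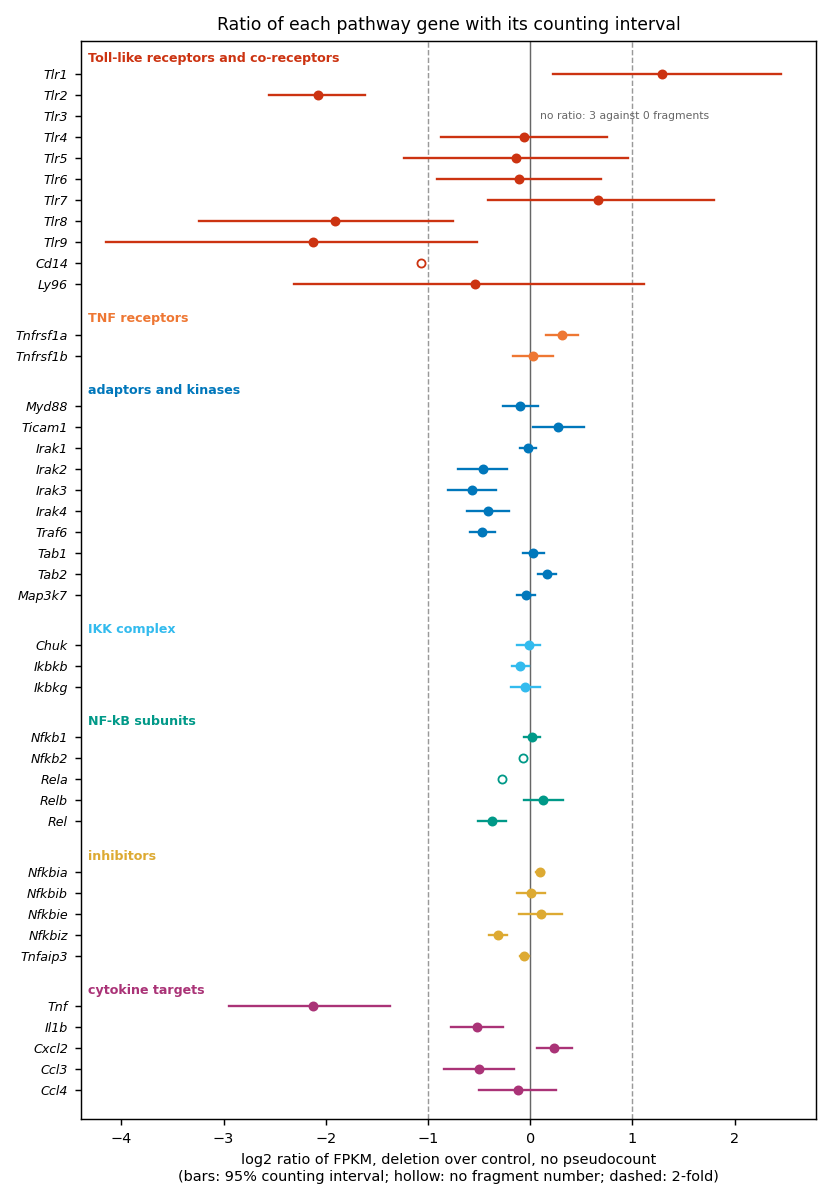
Plain log2 ratio of FPKM, deletion over control, for 40 of the 41 genes, coloured by role; bars are 95% counting intervals, hollow points have no fragment number, and dashed lines mark 2-fold. The intervals of Tlr2 and Tnf lie wholly left of the 2-fold line, the intervals of the low Toll-like receptors are wide, and the IKK genes and inhibitors sit close to 0.

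In the relay below the receptors, none of the 10 adaptor and kinase genes passed 2-fold. Over protein-coding genes 0.752% were at least 2-fold lower and 0.488% as much higher. Of the 10 genes 7 were below 0, against 51.6% of all measured genes, with a median log2 ratio of -0.064. Irak1 and Map3k7 turned above 0 when the scaling excluded mitochondrially encoded genes. Myd88, the adaptor of nearly all Toll-like receptors and of the IL-1 receptor, was at 13 FPKM in control HSCs and 12.1 FPKM in deletion HSCs (580 and 526 fragments). Its interval of -0.27 to 0.077 included equality. Exons of Myd88 overlap those of Acaa1a on the opposite strand, at 13.7 and 14.3 FPKM. Ticam1, which encodes TRIF, the adaptor of TLR3 and of TLR4 in endosomes, was at 4.71 and 5.70 FPKM, from 245 and 287 fragments, with an interval of 0.022 to 0.53.

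The IRAK kinases bind MyD88, and their members separated by level. Irak1, the most abundant, was at 33.6 and 33.1 FPKM, from 2753 and 2629 fragments, with an interval of -0.099 to 0.056. Irak2, which sustains late signalling, was at 4.68 and 3.39 FPKM, with an interval of -0.70 to -0.23. Irak3, which encodes the inhibitory member IRAK-M of monocytes and macrophages, was at 6.0 FPKM in control HSCs and 4.04 FPKM in deletion HSCs, and its log2 ratio of -0.47 was the lowest of the relay. Irak4, the kinase that starts the cascade, was at 5.28 and 3.96 FPKM, with an interval of -0.62 to -0.21. The 3 less abundant IRAK genes were thus all lower in the deletion library, by less than 1.5-fold on plain FPKM. Irak1 was at the same level within counting error at the scaling reported. Exons of Irak3 overlap those of Tmbim4 on the opposite strand, and exons of Irak4 those of Twf1, and whether the counting used strand is not given in the sources used here.

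Traf6, the ubiquitin ligase that links IRAKs to TAK1, was at 9.06 FPKM in control HSCs and 6.55 FPKM in deletion HSCs (1241 and 870 fragments), with an interval of -0.59 to -0.34. The TAK1 complex showed no such difference. Map3k7, which encodes TAK1 itself, was at 18.2 and 17.7 FPKM, with an interval of -0.13 to 0.050. Tab1 was at 26.2 and 26.8 FPKM, and Tab2, whose product binds ubiquitin chains, at 19.0 and 21.3 FPKM. The interval of Tab1 (-0.075 to 0.13) included equality, and that of Tab2 (0.073 to 0.25) lay above it at the scaling reported. After rescaling to a common total the log2 ratio of Tab2 was 0.013.

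The IKK genes had the narrowest range of log2 ratios of the 7 groups of members. Chuk (IKK-alpha) was at 15.4 FPKM in control HSCs and 15.3 FPKM in deletion HSCs (1363 and 1307 fragments). Ikbkb (IKK-beta), the kinase of the classical pathway, was at 7.12 and 6.67 FPKM, and Ikbkg, which encodes the regulatory subunit NEMO, at 5.88 and 5.70 FPKM. Their log2 ratios ran from -0.084 for Ikbkb to -0.014 for Chuk, and those of Chuk and Ikbkg turned above 0 when the scaling excluded mitochondrially encoded genes. Intervals of Chuk and Ikbkg included equality, and that of Ikbkb ended just below it at -0.011. Exons of Ikbkg overlap those of the more abundant G6pdx on the opposite strand, at 39.0 and 38.1 FPKM.

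Rela dominated the NF-kB subunits. It encodes p65, the transactivating subunit of the classical dimer, and made up 62.7% of the summed FPKM of the 5 subunit genes in control HSCs and 59.3% in deletion HSCs. Rela was at 80.9 and 67.0 FPKM, a log2 ratio of -0.27. Rel, which encodes c-Rel, was at 8.05 and 6.20 FPKM, from 1045 and 780 fragments, with an interval of -0.51 to -0.24. Both were below 0 under every scaling tried. Nfkb1, the source of p105 and p50, was at 13.9 and 14.1 FPKM, from 2920 and 2865 fragments, with an interval of -0.057 to 0.093. In the alternative pathway, Nfkb2 (p100 and p52) was at 19.5 and 18.5 FPKM, and Relb, its partner, at 6.61 and 7.21 FPKM with an interval of -0.063 to 0.32. Rela and Nfkb2 have no fragment number, and exons of Nfkb2 overlap those of Psd on the opposite strand.

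The inhibitors include the most abundant member of the pathway. Nfkbia (ENSMUSG00000021025, chromosome 12, 55489410 to 55492647, minus strand, GRCm38), which encodes IkB-alpha and is itself induced by NF-kB, was at 363 FPKM in control HSCs and 389 FPKM in deletion HSCs (10167 and 10542 fragments). Its plain log2 ratio was 0.097 with an interval of 0.058 to 0.14, and it turned to -0.050 on the log2 ratio when both libraries were rescaled to a common total. Its level exceeded that of 99.1% of measured genes in either library, and it made up 41.3% and 45.0% of the summed FPKM of all members. Tnfaip3, which encodes A20, the ubiquitin-editing enzyme that ends NF-kB signalling, was at 76.8 and 73.9 FPKM, from 9649 and 8994 fragments.

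The other IkB genes were lower and as even. Nfkbib (IkB-beta) was at 23.3 FPKM in control HSCs and 23.4 FPKM in deletion HSCs, with an interval of -0.13 to 0.15. Its exons overlap those of Sirt2 on the opposite strand, at 20.4 and 21.0 FPKM. Nfkbie (IkB-epsilon) was at 7.05 and 7.57 FPKM, with an interval of -0.11 to 0.31. Nfkbiz, which encodes the nuclear protein IkB-zeta, needed for a set of secondary target genes, was the one inhibitor that differed more, at 26.9 and 21.6 FPKM from 2346 and 1823 fragments, with an interval of -0.41 to -0.23. It stayed below 0 under every scaling tried.

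The upstream sequences show which of these genes carry letters of the NF-kB binding motif next to their start. The motif was searched on both strands as GGGNNTTTCC and as GGGNNTTCCC, forms that overlap where a run of letters fits both, in the 250 bases before each RefSeq transcript start (GRCm38.p6). Of the 41 members, 31 had at least 1 such window and 8 of these had a match, namely Cxcl2, Map3k7, Nfkb2, Nfkbia, Rel, Tlr2, Tlr3 and Tnfaip3. Among all 32851 windows 2.82% had a match, and a gene can have several windows. A match is a description of letters and not a bound site, and a window without one says only that these letters are not in it. The stretches printed here, each read 5′ to 3′ on the strand of its gene and free of annotated exons, are those of a feedback inhibitor, a subunit and a chemokine, none of them past 2-fold. Matches are in capitals. That of Nfkbia is chr12:55492648-55492897 (minus strand), that of Rel chr11:23770971-23771219 (minus strand) and that of Cxcl2 chr5:90903649-90903870 (plus strand).
Nfkbia: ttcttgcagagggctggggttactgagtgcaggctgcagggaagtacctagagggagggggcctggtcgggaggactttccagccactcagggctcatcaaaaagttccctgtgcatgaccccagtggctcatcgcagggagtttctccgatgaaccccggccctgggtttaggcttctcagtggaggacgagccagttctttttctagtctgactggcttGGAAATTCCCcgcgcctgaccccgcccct
Rel: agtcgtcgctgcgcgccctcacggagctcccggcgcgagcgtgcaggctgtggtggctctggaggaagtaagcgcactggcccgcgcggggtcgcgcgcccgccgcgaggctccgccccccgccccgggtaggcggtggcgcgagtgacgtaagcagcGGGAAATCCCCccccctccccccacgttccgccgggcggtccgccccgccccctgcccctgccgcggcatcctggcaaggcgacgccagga
Cxcl2: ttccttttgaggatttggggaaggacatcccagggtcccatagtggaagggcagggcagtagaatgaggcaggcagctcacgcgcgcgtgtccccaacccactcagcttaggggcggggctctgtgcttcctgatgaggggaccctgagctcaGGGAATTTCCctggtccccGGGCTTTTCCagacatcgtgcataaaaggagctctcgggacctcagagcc

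Nfkbia held 1 match, 29 to 20 bases before its start. Cxcl2 held 2, at 97 to 88 and 78 to 69 bases before the start. In Rel the matches at 92 to 83 and 91 to 82 bases overlap and read as a single run. The corresponding stretches of the genes past 2-fold lower are shown for comparison, that of Tlr2 being chr3:83841768-83841858 (minus strand) and that of Tnf chr17:35202008-35202257 (minus strand).
Tlr2: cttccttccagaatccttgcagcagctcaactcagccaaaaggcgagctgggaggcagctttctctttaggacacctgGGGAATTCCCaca
Tnf: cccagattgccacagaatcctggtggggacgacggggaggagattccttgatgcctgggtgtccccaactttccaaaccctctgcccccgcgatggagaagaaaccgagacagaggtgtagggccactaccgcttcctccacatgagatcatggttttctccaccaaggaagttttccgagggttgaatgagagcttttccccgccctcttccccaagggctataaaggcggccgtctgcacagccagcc

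Tlr2 held 1 match, 172 to 163 bases before its RefSeq start, and Tnf none in these 250 bases. A match was thus present in genes at nearly equal levels, such as Nfkbia and Tnfaip3, and in Tlr2, and absent from this window of Tnf.

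Of the 5 inflammatory targets, Tnf differed most. Tnf (ENSMUSG00000024401, chromosome 17, 35199381 to 35202007, minus strand, GRCm38), the gene of the cytokine TNF, was at 2.84 FPKM in control HSCs and 0.65 FPKM in deletion HSCs (81 and 18 fragments). On plain FPKM it was 4.36-fold lower, with a counting interval of 2.59-fold to 7.73-fold, and its log2 ratio was -1.22. Il1b, the gene of IL-1-beta, was at 9.75 and 6.79 FPKM, from 323 and 218 fragments, with an interval of -0.78 to -0.27. Il1b and Tnf were below 0 under every scaling tried.

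The chemokines did not move together. Ccl3 was at 13.4 FPKM in control HSCs and 9.46 FPKM in deletion HSCs (178 and 122 fragments), with an interval of -0.84 to -0.16. Its neighbour Ccl4, which attracts similar cells, was at 11.1 and 10.2 FPKM, from 127 and 113 fragments, with an interval of -0.50 to 0.25. Cxcl2, a neutrophil attractant, went the other way, at 14.6 FPKM in control and 17.1 FPKM in deletion HSCs (524 and 597 fragments), with an interval of 0.062 to 0.41. The target genes thus ranged from a log2 ratio of -1.22 for Tnf to 0.22 for Cxcl2, with a median of -0.46.

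**Figure D3:**
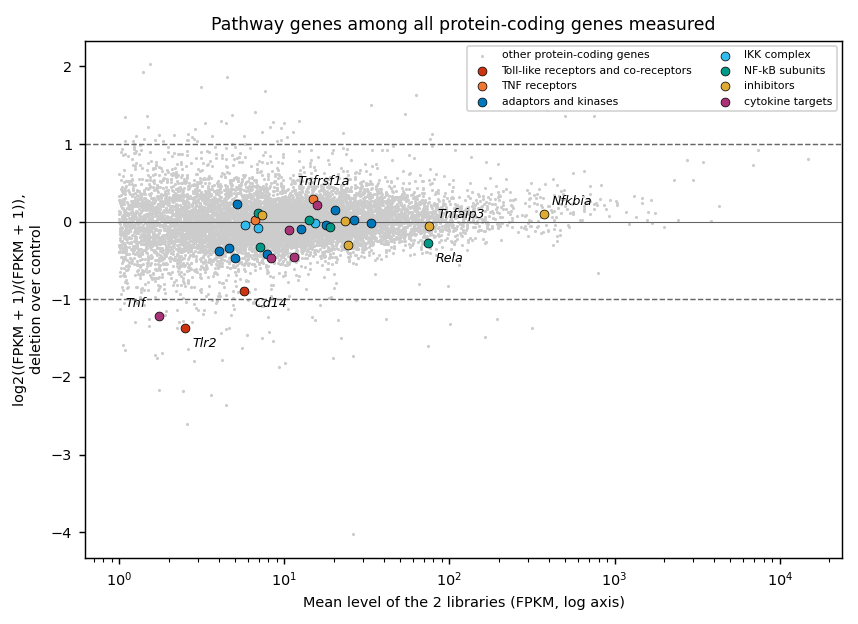
Log2 ratio, deletion over control, against the mean FPKM of both libraries for the 10237 protein-coding genes measured, with the 32 measured pathway genes in colour by role and dashed lines at 2-fold. Tlr2 and Tnf lie below the lower line, Cd14 just above it, and the other 29 lie within 0.5 of 0.

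Intervals of counting error excluded equality for many genes. Among 29 measured members with fragment numbers, the interval lay wholly below equality for 12 (41.4%) and wholly above it for 5 (17.2%), and it included equality for 12. Over 9657 protein-coding genes with fragment numbers the shares were 31.5% below and 27.3% above. An interval that excludes equality is therefore common in these libraries, and it does not set a member apart.

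Most markers of mature myeloid cells were lower in the same library as Tlr2, Cd14 and Tnf, genes that such cells express. Lower values were common in that library. Of the 23003 genes above 0 in either library 58% were lower in deletion HSCs. Fewer genes were above 0 in deletion HSCs (18217) than in control HSCs (21891). Of 12 macrophage markers 11 were lower in the deletion library, with a summed level of 41.6 FPKM in control HSCs and 20.3 FPKM in deletion HSCs. Marco and Timd4 were at 0 in the deletion library, against 8 and 5 fragments in control HSCs. The counting interval of Timd4 included equality. Csf1r, the receptor that macrophages need, was at 4.44 and 0.75 FPKM. Of 9 monocyte markers 8 were lower, the exception being Ly6c2 at 30.4 against 60.8 FPKM. Their sum went from 304 to 158 FPKM, a fall that came from Lyz2, at 242 and 86.1 FPKM. All 12 markers of maturing neutrophils were lower, and none of these or of the monocyte markers was at 0. All 7 granulocyte-monocyte progenitor markers were higher, from 1041 to 2714 FPKM in sum. Of 8 dendritic cell markers all were lower, from 57.3 to 32.3 FPKM in sum, though Siglech was nearly even at 20 and 19 fragments. Most of that sum was H2-Ab1 (19.5 and 14.3 FPKM) and Cd74 (36.4 and 17.6 FPKM). Clec9a, Xcr1 and Cd209a were at 0 in the deletion library, against 13, 4 and 8 fragments in control HSCs. The counting interval of Xcr1 included equality. Of 6 eosinophil, basophil and mast cell markers 4 were lower, from 77.3 to 13.7 FPKM in sum, with Prg2, an eosinophil granule protein, at 49.9 and 2.13 FPKM, and none was at 0. Cpa3, a mast cell protease, went the other way at 1.78 and 3.68 FPKM. Lower values were not particular to myeloid markers. Lower in the deletion library were also 6 of 7 endothelial markers, 6 of 8 B and plasma cell markers and 5 of 8 T and NK cell markers. Cdh5, Cd3e, Cd3d, Cd3g and Cd8a were at 0 there, against 2, 6, 2, 7 and 11 fragments in control HSCs. The counting intervals of Cdh5 and Cd3d included equality. The T and NK sum rose from 31.1 to 80.3 FPKM, most of it Nkg7 at 29.1 and 78.0 FPKM. The part of any of these cell types, myeloid or other, in the values of Tlr2, Cd14 and Tnf was not tested.

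**Figure D4:**
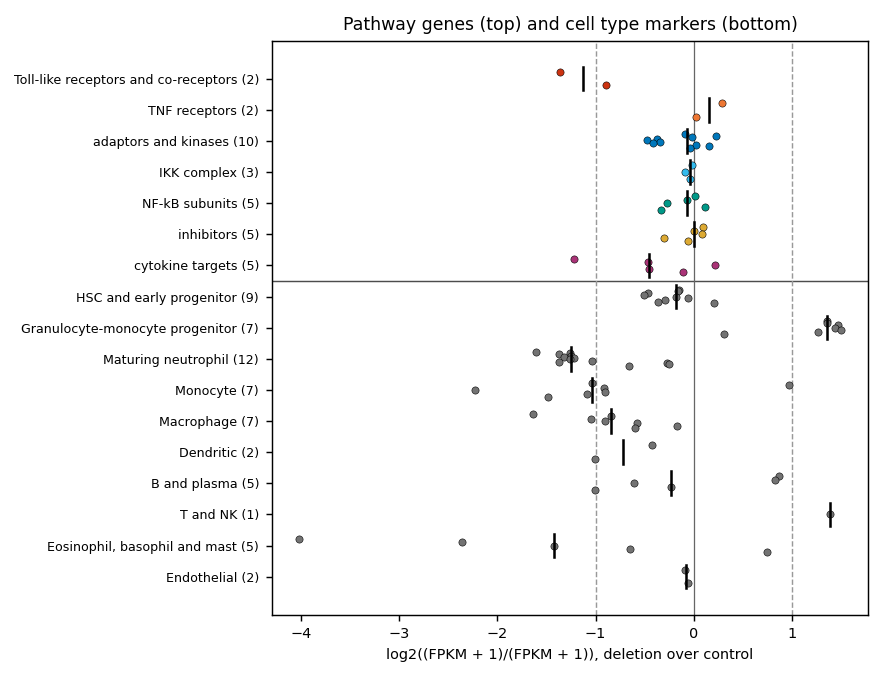
Log2 ratio, deletion over control, of each measured pathway gene by role (top) and of each measured cell type marker by list (bottom), with the number of genes in brackets, black bars at the medians and dashed lines at 2-fold. The medians of the relay, IKK, subunit and inhibitor groups lie within 0.1 of 0, while those of the neutrophil, monocyte and macrophage lists are -1.25, -1.04 and -0.84.

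Other genes of the pathway were taken from lists of textbook members. Of 27 further genes of the Toll-like receptor pathway 20 were measured, and none of them passed 2-fold on the log2 ratio. Over protein-coding genes only 0.752% were at least 2-fold lower and 0.488% as much higher, so this does not set the 20 apart. The median of the 20 was -0.098, and 11 (55%) were below 0 against 51.6% of all measured genes. The lowest were Irf7 and Irf5, interferon regulatory factors, Irf7 acting downstream of endosomal receptors. Irf7 was at 6.8 FPKM in control HSCs and 3.38 FPKM in deletion HSCs, 2.01-fold lower on plain FPKM. Irf5 was at 3.78 and 2.45 FPKM. The highest were Map2k6, a kinase upstream of p38, at 2.37 and 3.36 FPKM, and Hsp90b1, the chaperone that folds Toll-like receptors, at 49.0 and 61.2 FPKM. Tlr13, a sensor of bacterial ribosomal RNA named here after its values were seen, was below the minimum level but differed widely, at 1.36 and 0.23 FPKM from 102 and 17 fragments.

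Of 33 further regulators of NF-kB 29 were measured, with a median of -0.050. Again none passed 2-fold, against 0.752% of protein-coding genes lower and 0.488% higher by that much. Below 0 were 18 (62.1%), against 51.6% of all measured genes. Malt1, the paracaspase of antigen receptor signalling, was lowest at 2.87 and 1.84 FPKM, followed by Map3k14, the kinase NIK of the alternative pathway, at 2.32 and 1.53 FPKM. Bcl3, a nuclear IkB family member, was highest at 3.16 and 4.49 FPKM, followed by Card9, an adaptor of fungal recognition, at 10.3 and 12.7 FPKM. Of 25 further NF-kB target genes 13 were measured, and 1 was at least 2-fold lower and none at least 2-fold higher, against 0.752% and 0.488% of protein-coding genes and 3.38% and 2.47% of all measured genes. That gene was Ccl5, a chemokine, at 4.38 FPKM in control HSCs and 1.48 FPKM in deletion HSCs (73 and 24 fragments). The 13 targets had a median log2 ratio of -0.16, with 8 (61.5%) below 0 against the same 51.6%.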

How the data were processed

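RNA of sorted HSCs was sequenced as 150 bp paired-end reads, 1 library per genotype, per the labels' protocols. The deposited values are FPKM calculated by the authors for 54531 Ensembl genes. The submitters' processing notes list Bowtie 0.12.2 and build mm8 without saying for which step. How fragments were counted, with which annotation and strand setting, is not given in the sources used here. Both value columns were matched to samples by the description in the labels. Symbols were found for 54408 genes and exon lengths for 54494, from GENCODE M21 on GRCm38, whose positions are printed.

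FPKM times exon length fell within 0.02 of a whole multiple of a single step for 96.5% (control) and 96.1% (deletion) of genes above 0, which gave depths and fragment numbers. Members without a whole number (3) have no interval. FPKM depends on the library total and the gene model, so abundant genes shift the rest. Exons of 10 members overlap exons of another gene.

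Ratios are log2((FPKM + 1)/(FPKM + 1)), called at 2-fold where the mean of both libraries reached 1 FPKM. All 41 members are named. Of the other pathway lists, the genes past 2-fold are named, or else the 2 highest and 2 lowest ratios. Il1r1, Il1rl1, Il33, Tlr13 and the cell type markers named singly were chosen after their values were seen. Members, lists and motif letters were chosen with earlier results of these data, or the sequences, known. Alternatives were other pseudocounts, minimum levels, scalings and thresholds. Python 3.11.15 with SciPy 1.17.1 was used, and the computation was tested on simulated data.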

Additional observations from a re-analysis of the deposited data

How the results depend on the processing

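No measured member was at least 2-fold higher under any alternative run, and none was at least 1.5-fold higher at the reported scaling. Members under the minimum level were counted only in the run without a minimum mean, where 0 of 41 were at least 2-fold higher and 2 lower. Among members under the minimum level Tlr1 was 2.44-fold higher on plain FPKM. Tlr8 (-1.36) and Tlr9 (-1.24) were past 2-fold lower with a pseudocount of 0.1 FPKM. The number of measured members at least 2-fold lower was 2 at the settings reported. It was 3 with a pseudocount of 0.1 FPKM or after rescaling to a common total (the third being Cd14), and 3 at 1.5-fold. It was 0 with a pseudocount of 5 FPKM, where Tlr2 stood at -0.60 and Tnf at -0.47, and 0 at a minimum mean of 5 FPKM, which leaves both genes out. The median log2 ratio of the members, -0.063 as reported, was -0.065 and -0.054 with pseudocounts of 0.1 and 5 FPKM and -0.052 after centring on all genes. It was -0.047 without a minimum mean, where all genes were at -0.046, a difference of -0.0011. At a minimum of 5 FPKM it was -0.039, with all genes at 0.0043. Rescaling to a common total gave -0.21, with all genes at -0.15, and scaling without mitochondrially encoded genes gave 0.012, with all genes at 0.058. Relative to all genes the median lay between -0.059 and -0.046 under these scalings. Of 32 measured members 15 stayed below 0 and 4 above under the 5 scaling and pseudocount alternatives, and 13 changed sign. No member's ratio past 2-fold changed sign. No library could be left out, and no paired analysis was possible because each genotype has 1 library. Depth limits the Toll-like receptors other than Tlr2, which had at most 31 fragments per library.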

Other observations

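Genes of the IL-1 and TNF families gave 2 further members of the wider pathway past 2-fold lower, of 9 measured among 18 listed, and none past 2-fold higher. Over all measured genes 3.38% were at least 2-fold lower and 2.47% higher by that much, and over protein-coding genes 0.752% and 0.488%. Il1r2, the decoy receptor that binds IL-1 without signalling and is known from neutrophils and monocytes, was at 16.3 FPKM in control HSCs and 3.89 FPKM in deletion HSCs (539 and 125 fragments). It was 4.18-fold lower on plain FPKM, with a counting interval of 3.43-fold to 5.12-fold. Its signalling counterpart Il1r1 was at 1.5 and 1.51 FPKM. Tnfrsf13c, the BAFF receptor of B cells, was at 2.08 and 0.49 FPKM, from 74 and 17 fragments. Il1rl1, the IL-33 receptor, was at 8.18 and 8.65 FPKM, and its ligand Il33 was listed at 0 in both libraries. The median log2 ratio of the 9 was -0.28, against -0.011 for all measured genes. Markers of maturing neutrophils went the same way as Il1r2, lower in the deletion library in 12 of 12 cases, against 51.6% of all measured genes. These markers summed to 2590 and 1479 FPKM with none at 0, and the part of such cells was not tested.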
